A study of Mus musculus with 7 samples.

Results

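Amino acid transporters were examined in mouse endometrial epithelium as all protein-coding genes whose symbol starts with Slc1a, Slc3a, Slc6a, Slc7a, Slc36a, Slc38a or Slc43a followed by a number. The rule found 64 of the 21865 protein-coding genes in the count tables (53379 gene IDs in all), and the rule itself uses symbols and gene types alone. One of the 64, Slc7a6os, is a protein-coding neighbour of Slc7a6 that matches the pattern by name only and is no carrier. Slc6 also holds carriers of monoamines, taurine and creatine, which were kept because the rule names whole families.

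The study measured RNA of EPCAM-positive cells, sorted with magnetic beads from digested uteri, in 7 libraries from CD-1 mice. The 4 mutant libraries (genotype LtfCre 0/+; Brg1 fl/fl) each came from 1 mouse aged 120 days, in which Cre recombinase under control of lactoferrin (Ltf) deletes floxed Brg1, the gene Smarca4 that encodes an ATPase of the SWI/SNF chromatin remodeller. The 3 control libraries are wild-type, carry neither Cre nor floxed Brg1 as far as the labels say, and came from pools of mice whose age the sources do not state. They are re-used libraries of a previous series. Genotype, pooling, library set, sequencing depth (given next) and any difference in age therefore cannot be told apart.

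Gene reads per library ranged from 12436971 to 13364080 in mutants and from 21372036 to 25862245 in controls. Levels are given as TMM-scaled CPM (gene reads scaled to a fixed library total), where TMM is edgeR's correction for differing library composition, and 3 reads correspond to 0.182 to 0.234 CPM in mutants, against 0.136 to 0.158 CPM for controls. Such limits cover counting error only. Smarca4 ranged from 56.6 to 105.1 CPM in the mutant libraries, against 245 to 279 CPM for controls (log2 change −1.64 ± 0.23 SE, adjusted p = 0.00967 by edgeR). Epcam, the gene sorted on, did not pass (−0.38 ± 0.18 SE, adjusted p = 0.206 by edgeR), though all mutants (573 to 742 CPM) lay below all controls (821 to 965 CPM). Mutant replicate 1 stood apart from the other mutants, with the proliferation marker Mki67 at 12.3 CPM against 193 to 368 CPM, and Ltf itself at 82.5 CPM against 1143 to 2020 CPM, in the other 3 mutants. Controls lay between these values for Mki67 (72.45 to 128 CPM) and above all mutants for Ltf (2935 to 3681 CPM). Among the mutants, replicate 1 held 812 of the 1293 genes in which 1 library lay far from the other 3, so calls are also given without it.

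Cells take up amino acids through carriers that either pump them in with sodium, chloride or protons, or exchange 1 amino acid for another. The exchangers of the Slc7 light-chain group work as heterodimers, in which a light chain transports and a heavy chain, Slc3a2 (4F2hc, CD98) or Slc3a1 (rBAT), brings it to the membrane. Slc38 and Slc1 carriers load the cell with glutamine and other small neutral amino acids that LAT-type exchangers then trade for leucine and other large ones, and lysosomal carriers return amino acids to the cytosol. The kinase mTORC1, at the lysosome surface, responds to this supply. Several of these genes are known targets of ATF4, the transcription factor that cells make when amino acids run short, which binds the C/EBP-ATF response element.

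The RefSeq promoter table (GRCm38.p6, 250 bases before to 50 after a gene's start) held 46 of the 64 members, and 3 sequences are shown. One window carries the response element as an inverted pair, another carries it once, and the window of the heavy chain Slc3a2 carries none. The windows are chr3:50443564-50443863 (minus strand) for Slc7a11, chr11:20332664-20332963 (minus strand) for Slc1a4 and chr19:8713848-8714147 (minus strand) for Slc3a2. The window of Slc3a2 is that of the RefSeq start and lies inside the longer GENCODE gene, whose own start was not searched. Capitals mark the letters TGATGNAA or their reverse complement TTNCATCA.
Slc7a11: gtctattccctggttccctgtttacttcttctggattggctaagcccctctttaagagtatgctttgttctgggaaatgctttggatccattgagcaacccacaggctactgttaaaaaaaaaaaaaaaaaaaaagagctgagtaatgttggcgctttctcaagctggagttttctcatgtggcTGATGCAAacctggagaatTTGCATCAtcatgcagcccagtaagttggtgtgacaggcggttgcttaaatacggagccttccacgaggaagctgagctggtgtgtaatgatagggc
Slc1a4: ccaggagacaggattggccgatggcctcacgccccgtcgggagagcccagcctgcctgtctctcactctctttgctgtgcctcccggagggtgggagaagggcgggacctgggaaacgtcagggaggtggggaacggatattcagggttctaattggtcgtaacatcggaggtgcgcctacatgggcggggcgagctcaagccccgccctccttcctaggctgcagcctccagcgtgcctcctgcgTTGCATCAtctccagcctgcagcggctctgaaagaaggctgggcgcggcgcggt
Slc3a2: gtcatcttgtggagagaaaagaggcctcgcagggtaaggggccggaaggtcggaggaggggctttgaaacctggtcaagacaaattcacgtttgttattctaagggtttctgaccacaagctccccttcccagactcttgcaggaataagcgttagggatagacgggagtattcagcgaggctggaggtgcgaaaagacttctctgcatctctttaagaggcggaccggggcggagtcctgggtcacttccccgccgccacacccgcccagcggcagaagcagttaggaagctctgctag
Counted from the start site, the matches in Slc7a11 begin at bases −66 and −47, on opposite strands, and the match in Slc1a4 begins at base −4. These letters, searched on both strands, occurred in the promoter of 4 of the 46 members (Slc1a4, Slc6a21, Slc7a7 and Slc7a11) and of 4.51% of 27025 genes. The antioxidant response element (TGACNNNGC, both strands) occurred in 9 of 46 members against 14.0% of all genes, and the E-box (CACGTG, its own reverse complement) also in 9 of 46 against 8.09%. Neither of these occurs in the windows shown, and in Slc36a1 an antioxidant response element and an E-box overlap. Such matches describe the letters of these windows and are no evidence of binding. A window without a match says nothing about bases outside it. Slc7a5, Slc38a1 and Slc6a6 are among the members without an entry.

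In control epithelium, 33 of the 64 members had a mean of at least 1 CPM, 23 of at least 10 CPM and 9 of at least 100 CPM. To compare genes with each other, levels were divided by the length of merged exons (CPM per kb). On that scale the control order was led by Slc38a2 (SNAT2, a sodium-coupled carrier of small neutral amino acids) at 137 ± 4.56 CPM per kb and Slc1a5 (ASCT2, a glutamine exchanger) at 123 ± 12.5 CPM per kb (SD, n = 3), whose control ranges overlapped. Slc6a14 (94.9 ± 23.1 CPM per kb), Slc3a2 (84.9 ± 7.33), Slc7a5 (66.4 ± 16.7) and the cationic amino acid carrier Slc7a1 (46.0 ± 4.33) followed, and these first 6 genes made up 78.0% of the summed level of the family. Merged exons run to 17236 bases in Slc38a1, 16704 in Slc38a9 and 13922 in Slc7a11, which lowers their values on this scale.

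**Figure D1:**
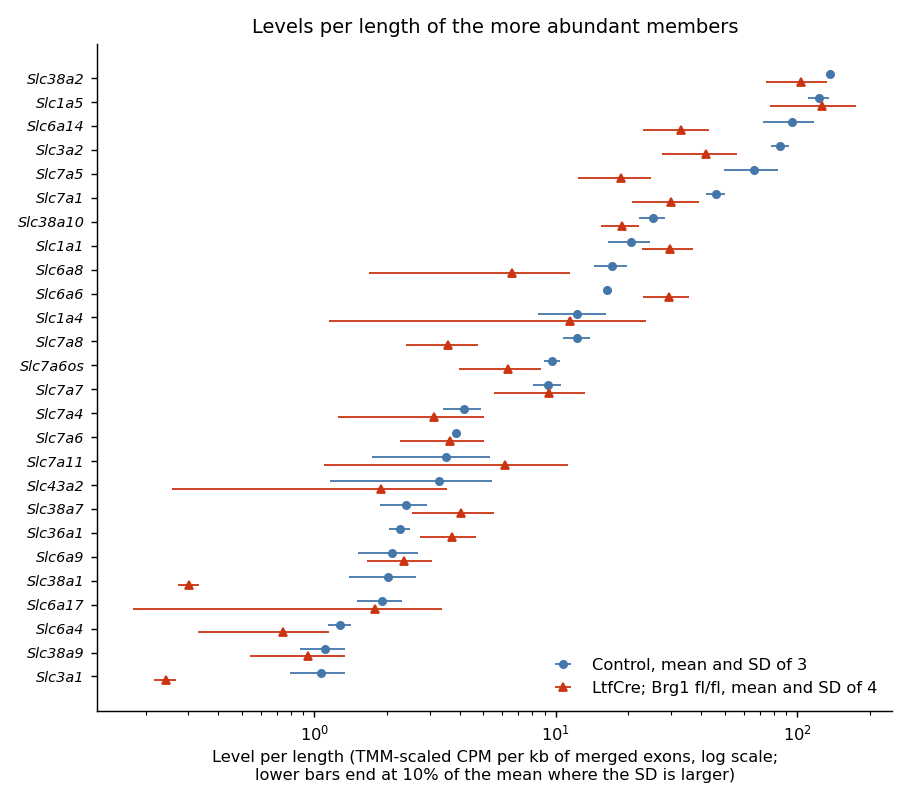
Levels per length of the members above 1 CPM per kb in controls, on a log axis, with blue circles for the mean and SD of 3 control libraries and red triangles for the mean and SD of 4 mutant libraries. Slc6a14, Slc3a2, Slc7a5, Slc7a8, Slc38a1 and Slc3a1 sit to the left of their control value, Slc6a6 sits to its right, and Slc1a5 stays near the top of both orders with a wide mutant bar.

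The order was partly different in mutants. Slc1a5 led with 126 ± 49.5 CPM per kb (SD, n = 4), followed by Slc38a2 at 104 ± 29.2 CPM per kb, while Slc7a5 moved from the fifth place in controls to the ninth in mutants (18.6 ± 6.19 CPM per kb). The summed level over all 64 members was 576, 524, 501 and 410 CPM per kb in mutant replicates 1 to 4 and 735, 715 and 678 CPM per kb in controls, without overlap. These are sums of levels with no test, and the lack of overlap depends on TMM scaling. The TMM factors were 1.03 to 1.23 in mutants and 0.852 to 0.886 in controls, and without them mutant replicate 1 would lie above control replicate 3.

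Of the 64 members, 35 passed edgeR's filter on low counts and were tested. The other 29 members are accounted for by their reads. Of these, 9 had no read in any library, which allows levels up to the 3-read limits above: Slc1a6, Slc6a5, Slc6a7, Slc6a11, Slc6a18, Slc7a10, Slc7a14, Slc7a15 and Slc36a3. A further 20 had between 1 and 110 reads over all libraries. Slc7a2 (CAT2, a cationic amino acid carrier) had the most, with 110 reads and a highest value of 3.89 CPM in mutant replicate 4, and Slc1a3 (EAAT1, a glutamate carrier), with 58 reads, reached 1.43 CPM in a control. Slc7a9, the light chain that pairs with Slc3a1 in kidney and gut, had 14 reads in all. The others stayed under 1 CPM in every library. Among them were Slc36a2, Slc38a3, Slc43a1, Slc6a12, Slc6a19, Slc6a13, Slc1a7, Slc38a8, Slc6a20b, Slc7a13, Slc6a3, Slc38a11, Slc6a21, Slc6a16, Slc7a12 and Slc6a20a, of whose 50-base words 15.3% occur in other genes.

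Among the 35 tested members, 6 fell and 1 rose in mutants (quasi-likelihood test of edgeR, with p adjusted over 14610 genes by the method of Benjamini and Hochberg and a threshold of 0.05). That is 17.1% lower and 2.86% higher, beside 6.18% of all genes tested lower and 5.37% higher. Those that fell were both heavy chains, Slc3a2 and Slc3a1, the light chains Slc7a5 and Slc7a8, the sodium-coupled Slc38a1 and the sodium- and chloride-coupled Slc6a14. The taurine carrier Slc6a6 rose. Of these members, Slc3a2, Slc3a1, Slc7a8 and Slc6a14 had promoter windows without the C/EBP-ATF response element, and the others had no window. The tested members with the element in a window, Slc1a4, Slc7a7 and Slc7a11, did not pass. Bases outside the windows were not searched, and the relation of the element to the calls was not tested. With 1 library left out at a time, between 1 and 10 members fell and between 0 and 3 rose, and the libraries behind this are named with their values further on. All 4 mutant levels lay below all 3 control levels for 10 of the 35 members (28.6%, beside 16.1% of all genes tested) and above them for 5 (14.3%, beside 15.4%). The median log2 fold change of the 35 was −0.24, against 0.06 for all genes tested. It ranged from −0.47 without mutant replicate 1 to −0.06 without control replicate 2, and its distance from the median of all genes from −0.53 to −0.18 in the same fits. In these bulk samples, fewer cells of a type and less RNA per cell cannot be told apart.

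Scaling moved all values together. The median of all genes tested was 0.06 with TMM, 0.20 when upper quartiles and 0.41 when total counts set the scale, and that of the members was −0.24, −0.10 and 0.09, so that it turned positive with total counts while staying 0.30, 0.31 and 0.32 below the median of all genes. None of the 7 members past the threshold changed direction under these scalings or under the other alternatives tried. Their mutant and control levels did not overlap, so this was likely beforehand. With total counts 5 members fell and 4 rose, the added ones being Slc1a1, Slc36a1 and Slc38a6, while Slc3a2 no longer passed.

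**Figure D2:**
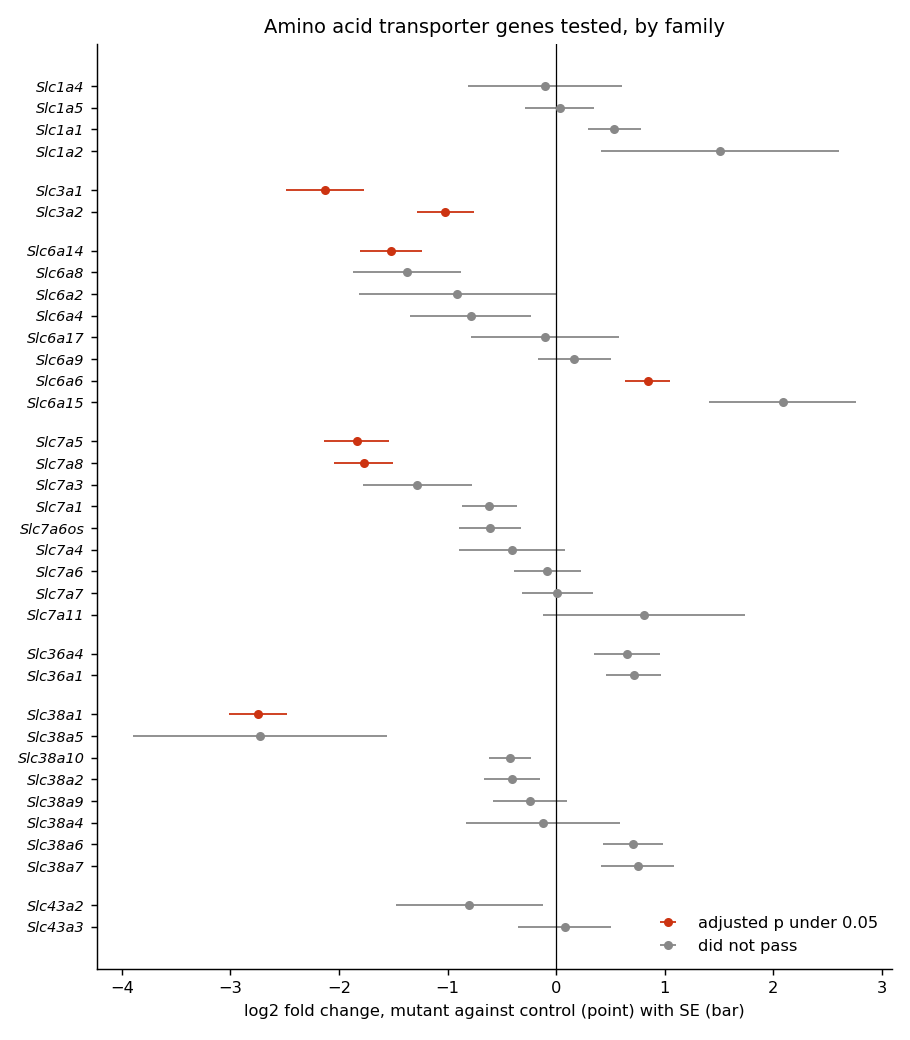
Log2 fold change of each tested member, mutant against control, with its standard error, grouped by family, red where the adjusted p was under 0.05. Both Slc3 genes lie left of 0, Slc7 runs from −1.84 for Slc7a5 to 0.81 for Slc7a11, and both Slc36 genes lie right of 0 without passing.

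The heterodimeric exchangers changed in several of their parts. Slc3a2, the common heavy chain (chr19:8706882-8723369, minus strand of GRCm38), lay at 288, 329 and 281 CPM in control replicates 1 to 3 against 223, 115, 130 and 123 CPM in the 4 mutants, in replicate order. All mutants were below all controls, mutant replicate 1 least so, and the level was 2.03-fold lower (log2 change −1.02 ± 0.26 SE, adjusted p = 0.0476 by edgeR). This call is at the threshold. The adjusted p of edgeR was 0.00404 without mutant replicate 1, but 0.0895 to 0.173 without any other library, 0.0613 with upper quartiles, 0.0828 with total counts, 0.0584 with no filter and 0.0503 with unstranded counts. Slc7a5, the light chain of LAT1 that carries leucine and other large neutral amino acids (chr8:121881150-121907694, minus strand), lay at 305, 252 and 182 CPM in controls and at 49.1, 62.0, 102 and 62.2 CPM in mutants. The groups did not overlap, and the level was 3.58-fold lower (log2 change −1.84 ± 0.30 SE, adjusted p = 0.0144 by edgeR).

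Slc7a8, the light chain of LAT2, which exchanges neutral amino acids over a broader range than LAT1 (chr14:54722209-54781946, minus strand), lay at 67.4, 52.5 and 63.8 CPM in controls and at 17.6, 12.8, 15.0 and 26.2 CPM in mutants. It was 3.42-fold lower, again without overlap (log2 change −1.77 ± 0.27 SE, adjusted p = 0.0120 by edgeR). Slc3a1, the heavy chain that is known from cystine uptake in kidney (chr17:85028376-85064236, plus strand), was scarce throughout, at 1.79, 2.43 and 3.04 CPM in controls and at 0.546, 0.536, 0.629 and 0.486 CPM in mutants. Its level was 4.36-fold lower (log2 change −2.13 ± 0.36 SE, adjusted p = 0.0162 by edgeR), though it rests on few reads in each mutant library.

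The other light chains of Slc3a2 did not pass. Slc7a6 and Slc7a7, which exchange cationic for neutral amino acids, had means of 16.7 ± 6.42 and 31.0 ± 12.6 CPM in mutants (SD, n = 4) and of 17.7 ± 0.165 and 30.8 ± 3.97 CPM in controls (SD, n = 3). Slc7a11, the light chain of the cystine-glutamate exchanger xCT and the gene with the inverted pair of response elements shown above, lay at 77.5, 38.6 and 31.0 CPM in controls and at 4.68, 99.1, 174 and 65.8 CPM in mutants. Mutant replicate 1 was thus below every control and mutant replicates 2 and 3 above every control (log2 fold change 0.81 ± 0.93 SE, adjusted p = 0.589 by edgeR). Without mutant replicate 1 its value was 1.24 ± 0.45 SE (adjusted p = 0.0757 by edgeR).

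Per length, the 6 light chains that pair with Slc3a2 (Slc7a10 among them, without reads) summed to 95.3 ± 19.8 CPM per kb in controls (SD, n = 3) and 41.3 ± 13.0 CPM per kb in mutants (SD, n = 4), beside 84.9 ± 7.33 and 41.8 ± 14.4 CPM per kb for Slc3a2 itself. Light chains per heavy chain came to 0.959 to 1.42 in controls and to 0.444, 1.32, 1.59 and 1.02 in mutants. The ratios of mutant replicates 2 to 4 fell within or above the control range and that of mutant replicate 1 below it. This ratio was set up after the values were seen and has no test.

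**Figure D3:**
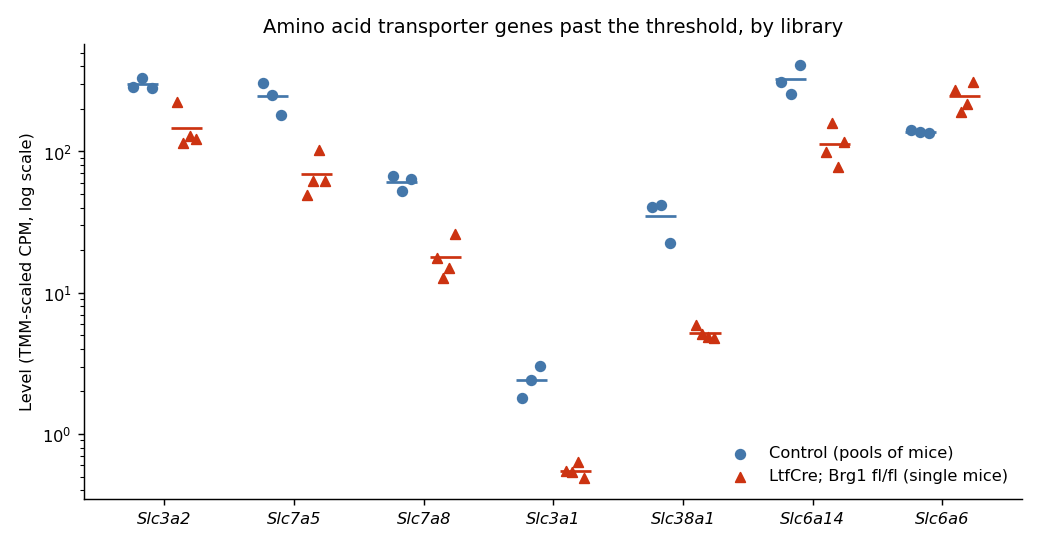
Level of each of the 7 members past the threshold in every library, in TMM-scaled CPM on a log axis, with blue circles for the 3 controls, red triangles for the 4 mutants and a short line at each mean. No mutant overlaps a control in any of the 7 genes, and Slc38a1 shows the widest gap between the groups.

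Among sodium-coupled neutral carriers of the Slc38 family, 1 of 8 tested members fell and none rose, beside 6.18% of all genes lower and 5.37% higher. Slc38a1 (SNAT1, a glutamine carrier of system A; chr15:96571418-96642913, minus strand) lay at 40.2, 41.8 and 22.4 CPM in controls and at 5.93, 5.13, 4.89 and 4.80 CPM in mutants. The 4 mutants were close together and far below the lowest control, so that the level was 6.70-fold lower (log2 change −2.74 ± 0.27 SE, adjusted p = 0.00509 by edgeR). Its paralogue Slc38a2, the most abundant member per length in controls, lay at 1255, 1215 and 1174 CPM in controls and at 609, 1168, 1088 and 803 CPM in mutants. All mutants were below all controls, mutant replicate 2 only just, and the difference did not pass (log2 change −0.40 ± 0.26 SE, adjusted p = 0.333 by edgeR).

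The remaining Slc38 members did not pass either. Slc38a10 (162 ± 19.7 CPM in controls and 120.5 ± 21.6 CPM in mutants) gave −0.42 ± 0.20 SE on the log2 scale (adjusted p = 0.187 by edgeR). Slc38a7, which exports glutamine and asparagine from lysosomes, had 9.95 ± 2.23 and 16.8 ± 6.25 CPM (0.75 ± 0.34 SE, adjusted p = 0.178 by edgeR), and Slc38a9, a lysosomal arginine sensor of mTORC1, had 18.5 ± 3.95 and 15.7 ± 6.66 CPM, each given for controls (SD, n = 3) and then mutants (SD, n = 4). Slc38a6 was above all controls in all mutants (0.71 ± 0.28 SE, adjusted p = 0.133 by edgeR), but 22.8% of the 50-base words of its transcripts occur in other genes, so its counts are uncertain. Slc38a4 stayed under 4 CPM in every library, and so did Slc38a5, a system N glutamine carrier that had no read in mutant replicates 2 and 3 and 0.790 to 3.43 CPM in controls.

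In the Slc6 family, 1 of 8 tested members fell and 1 rose, against the same shares of all genes (6.18% and 5.37%). Slc6a14 (ATB0,+, which takes up neutral and cationic amino acids with sodium and chloride; chrX:21714896-21742355, plus strand) lay at 310.5, 256 and 412 CPM in controls and at 99.9, 159, 77.1 and 118 CPM in mutants. The groups did not overlap, and the level was 2.87-fold lower (log2 change −1.52 ± 0.28 SE, adjusted p = 0.0206 by edgeR). Slc6a6 (TauT, the carrier of the osmolyte taurine; chr6:91684053-91759066, plus strand) lay at 143, 137 and 135 CPM in controls and at 274, 191, 217 and 311 CPM in mutants. The controls, which are pools of mice, were tightly grouped, and every mutant was above them. The level was 1.79-fold higher (log2 change 0.84 ± 0.21 SE, adjusted p = 0.0439 by edgeR).

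Other Slc6 members varied more between mutants. Slc6a8, the creatine carrier, lay at 93.3, 100.5 and 73.6 CPM in controls and at 71.9, 20.3, 16.6 and 28.5 CPM in mutants, so that mutant replicate 1 nearly reached the lowest control (log2 change −1.38 ± 0.50 SE, adjusted p = 0.112 by edgeR). Slc6a15 (B0AT2, a carrier of branched-chain amino acids and proline) lay at 2.21, 3.12 and 1.36 CPM in controls and at 3.67, 12.2, 3.91 and 18.1 CPM in mutants, all above the controls (2.09 ± 0.68 SE, adjusted p = 0.0883 by edgeR). Slc6a9 (GlyT1, the glycine carrier) and the vesicular carrier Slc6a17 overlapped between groups, with ranges of 6.71 to 14.3 and 4.52 to 40.9 CPM in mutants against 8.76 to 14.2 and 15.1 to 23.1 CPM in controls. The monoamine carriers Slc6a4 and Slc6a2 were at most 6.32 and 1.37 CPM in any library.

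No tested member of Slc1, Slc36 or Slc43 passed with edgeR, limma-voom or DESeq2, and Slc36a1 was the only 1 with an unadjusted p under 0.05 in edgeR. Slc1a5 lay at 514, 567 and 463 CPM in controls and at 801, 545, 453 and 310 CPM in mutants, which spread to both sides of the controls (log2 fold change 0.03 ± 0.32 SE, adjusted p = 0.953 by edgeR). Slc1a1 (EAAT3, a glutamate, aspartate and cysteine carrier) had 170 ± 33.7 CPM in controls (SD, n = 3) and 246 ± 58.8 CPM in mutants (SD, n = 4), or 0.54 ± 0.24 SE on the log2 scale (adjusted p = 0.180 by edgeR). Slc1a4 (ASCT1, a carrier of alanine, serine and cysteine) lay at 43.3, 65.3 and 36.1 CPM in controls and at 117, 14.1, 26.3 and 22.6 CPM in mutants, above all controls in mutant replicate 1 and below them in the others (−0.10 ± 0.71 SE, adjusted p = 0.937 by edgeR). Slc1a2 stayed under 3 CPM in every library.

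The Slc36 carriers Slc36a1 (PAT1) and Slc36a4 (PAT4) were above all controls in all mutants, with log2 fold changes of 0.71 ± 0.25 SE and 0.66 ± 0.31 SE (adjusted p = 0.106 and 0.190 by edgeR). Slc36a1 had 12.7 ± 1.27 CPM in controls and 20.8 ± 5.43 CPM in mutants, and Slc36a4 2.40 ± 0.0667 and 3.79 ± 0.709 CPM. In Slc43, the neutral amino acid carrier Slc43a2 (LAT4) ranged from 13.4 to 55.9 CPM in controls and from 8.94 to 43.5 CPM in mutants (−0.80 ± 0.67 SE, adjusted p = 0.456 by edgeR), and Slc43a3 stayed under 2 CPM (0.08 ± 0.43 SE, adjusted p = 0.919 by edgeR).

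The cationic carriers of Slc7 lack a heavy chain. Slc7a1 (CAT1, which imports arginine and lysine) lay at 588, 503 and 501 CPM in controls and at 267, 340.5, 499 and 278 CPM in mutants. All mutants were below all controls, mutant replicate 3 by a small margin (log2 change −0.62 ± 0.25 SE, adjusted p = 0.149 by edgeR). The scarcer Slc7a3 (CAT3) had 2.78 ± 0.884 CPM in controls and 1.13 ± 0.603 CPM in mutants (−1.28 ± 0.50 SE, adjusted p = 0.134 by edgeR), and Slc7a4 overlapped between groups (5.36 to 20.8 CPM in mutants, against 15.0 to 20.8 CPM for controls). Slc7a6os, no carrier, had −0.61 ± 0.29 SE (adjusted p = 0.198 by edgeR).

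Leaving out mutant replicate 1 raised the count of members past the threshold to 10 lower and 3 higher of 36 tested, beside 14.0% and 15.5% of all genes tested. The 7 members above were among these 13. The others were Slc6a8 (−1.98 ± 0.26 SE, adjusted p = 0.00483 by edgeR), Slc38a5 (−4.41, adjusted p = 0.0247 by edgeR), Slc1a4 (−1.16 ± 0.32 SE, adjusted p = 0.0332 by edgeR) and Slc43a2 (−1.57, adjusted p = 0.0488 by edgeR) as lower, and Slc6a15 (2.41, adjusted p = 0.0274 by edgeR) and Slc36a1 (0.86, adjusted p = 0.0318 by edgeR) as higher. The value of Slc38a5 depends on 2 libraries without reads. Leaving out any control had the opposite effect, with 133 to 169 of all genes past the threshold against 1687 with all libraries. Only Slc38a1 passed in each of the 7 fits with 1 library left out (adjusted p from 0.00305 to 0.0346 by edgeR), and without control replicate 1 or 2 it was the only member that passed. Slc7a5 passed without any 1 mutant and without control replicate 3 (adjusted p = 0.0489 by edgeR in the latter). Slc7a8, Slc3a1 and Slc6a14 passed without any 1 mutant (adjusted p from 0.00947 to 0.0491 by edgeR) and did not pass without any 1 control (0.0595 to 0.102). Slc3a2 passed only without mutant replicate 1 (adjusted p = 0.00404 by edgeR, and 0.0895 to 0.173 in the other 6 fits), and Slc6a6 only without mutant replicate 1 or 2.

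**Figure D4:**
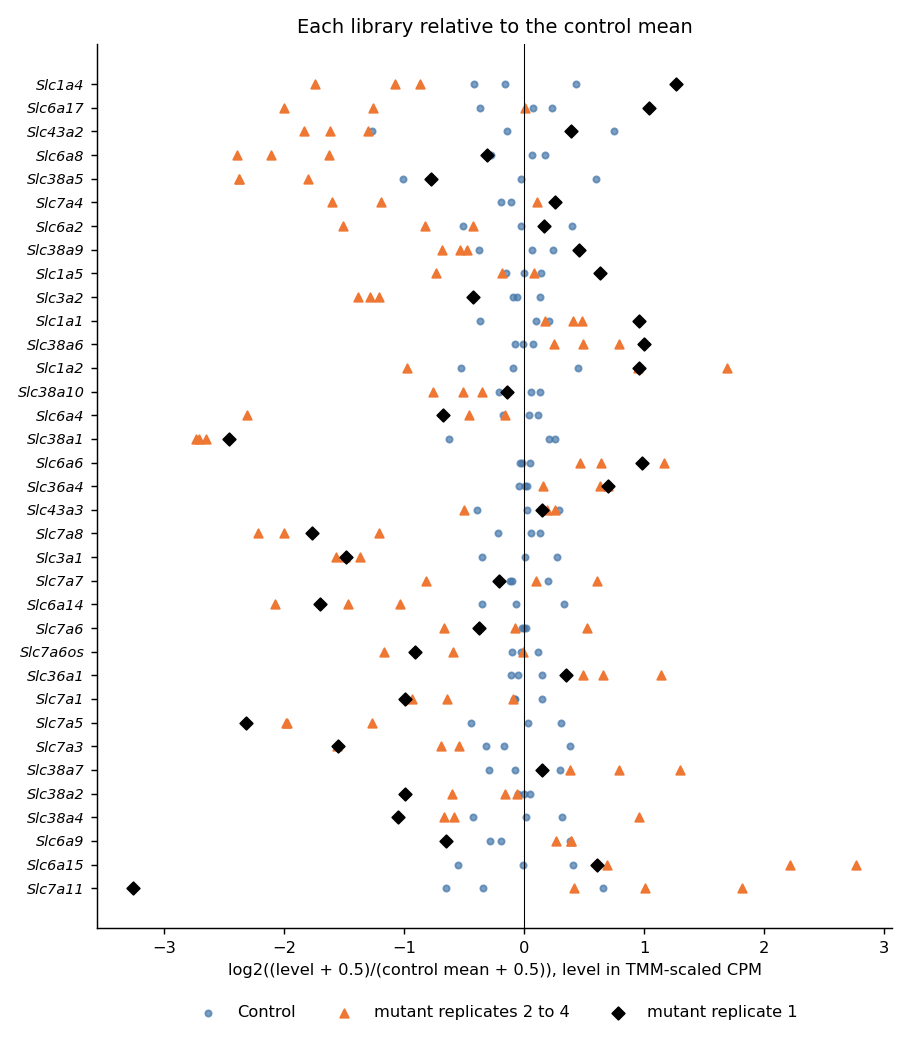
Level of each tested member in each library on a log2 scale relative to the control mean, with a pseudocount of 0.5 CPM, black diamonds for mutant replicate 1, orange triangles for mutant replicates 2 to 4 and blue circles for controls. Members are ordered by the gap between mutant replicate 1 and the other mutants, from Slc1a4 at the top (2.49 higher in mutant replicate 1) to Slc7a11 at the bottom (4.34 lower), while Slc38a1, Slc3a1 and Slc7a8 in the middle have all 4 mutants to the left.

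The authors' deposited table gave an adjusted p for 42 members, with 7 lower and 3 higher at 0.05, beside 8.34% and 8.85% of its genes. In the authors' deposited table the 7 members above kept their direction, with log2 fold changes from −2.74 for Slc38a1 (adjusted p = 5.51e-10) to 0.86 for Slc6a6 (adjusted p = 0.0109). That table compares the same groups of this series, so the shared direction was likely beforehand and is no independent evidence. The 3 further members in the authors' deposited table were Slc7a3 (−1.26, adjusted p = 0.0386), Slc38a6 (0.72, adjusted p = 0.0308) and Slc6a15 (2.09, adjusted p = 0.0223).

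Other genes of amino acid handling were counted in 5 lists, which were chosen with earlier results of these data known. Of 25 tested genes of the amino acid response, the programme around ATF4, 8 fell and none rose (32.0%, with a median of −0.95), beside 6.18% of all genes lower. Among them were the stress hormone Gdf15 (from 689 ± 104 to 28.5 ± 14.6 CPM, a log2 change of −4.59 ± 0.57 SE), the glutathione-degrading enzyme Chac1 (−4.58 ± 0.49 SE, with 4.17 ± 2.48 CPM in mutants), the translation repressor Eif4ebp1 (−3.32 ± 0.22 SE), the transcription factor Cebpb (−2.81 ± 0.22 SE) and the leucine sensor Sesn2 (−2.76 ± 0.28 SE). ATF4's own gene Atf4 fell as well (from 711 ± 19.4 to 311 ± 45.5 CPM, −1.19 ± 0.18 SE, adjusted p = 0.0115 by edgeR), a gene named after its value was seen. Each of these is given for controls (SD, n = 3) and then mutants (SD, n = 4), and the summed level of the list was 3265 to 3397 CPM in controls and 1596 to 1764 CPM in mutants. The falls did not cover the whole programme. Its genes of amino acid synthesis, such as Asns, Psat1, Phgdh and Shmt2, also stand in the amino acid metabolism list below, in which none fell past the threshold.

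In the other 4 lists the shares past the threshold were between 0% and 6.67% in either direction, near or below the 6.18% lower and 5.37% higher of all genes tested. Of 37 tested genes of amino acid sensing and mTORC1, 2 fell, Sesn2 and the folliculin partner Fnip2 (−1.06 ± 0.23 SE), and 2 rose, the GATOR1 subunit Depdc5 (from 18.2 ± 3.65 to 36.4 ± 3.95 CPM) and the Ragulator subunit Lamtor5 (0.99 ± 0.22 SE), with a list median of 0.11. Of 20 cytosolic aminoacyl-tRNA synthetases, the cysteine enzyme Cars fell (−1.13 ± 0.23 SE) and none rose (median 0.11). Among 33 genes of amino acid metabolism, the serine hydroxymethyltransferase Shmt1 rose (0.88 ± 0.18 SE) and none fell (median 0.07). Among 15 tested amino acid and peptide carriers outside the 7 families, the peptide carrier Slc15a1 rose (from 0.342 ± 0.139 to 3.10 ± 2.06 CPM, 3.17 ± 0.74 SE) and none fell (median 0.27). Without mutant replicate 1 the counts were 9 lower and 1 higher, 4 and 5, 1 and 4, 3 and 3, and 0 and 3 for the 5 lists in this order, beside 14.0% lower and 15.5% higher of all genes in that fit.

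**Figure D5:**
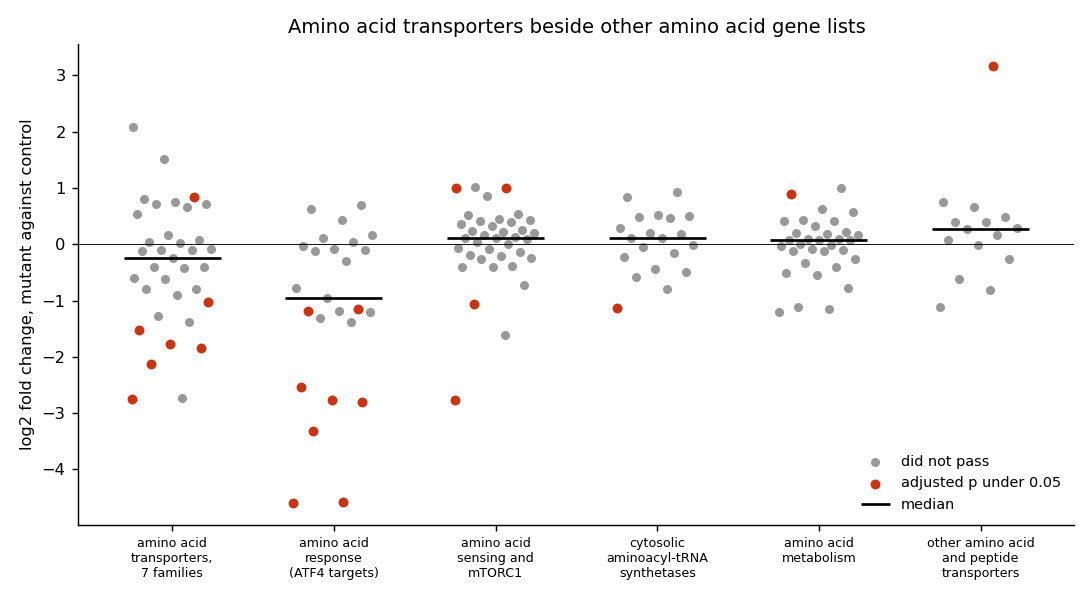
Log2 fold change, mutant against control, of each tested gene in the amino acid transporter families and in 5 other lists, with red points for adjusted p under 0.05 and a black line at each median. The amino acid response list holds the lowest values and a median of −0.95, the transporters a median of −0.24, and the other 4 lists medians between 0.07 and 0.27.

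Markers of other cells and states differed between some libraries, and their part in the transporter results was not tested. All 12 epithelial markers had reads, with a summed level of 17963 to 22327 CPM in controls and 9580 to 12298 CPM in mutants. Of these, 2 fell and 1 rose (16.7% and 8.33%, beside 6.18% and 5.37% of all genes tested), with a list median of −0.63. In either direction, 5 had an unadjusted p under 0.05 in edgeR, 5 passed by DESeq2 and 4 by limma-voom. Summed stromal markers were 705 to 822 CPM in controls and 200.2 to 586 CPM in mutants, with a list median of −1.08. Of the 10, 1 fell (Dcn), 5 had an unadjusted p under 0.05 in edgeR, and 2 passed by DESeq2 and 2 by limma-voom. Smooth muscle markers summed to 86.3 to 122 and 9.42 to 96.3 CPM, mesothelial markers to 49.0 to 113 and 17.8 to 42.9 CPM, and endothelial markers to 33.2 to 40.8 and 6.28 to 39.6 CPM. None passed the edgeR threshold in these last 3 lists of 8, 6 and 9 tested genes (2, 2 and 0 at an unadjusted p under 0.05, and 0, 1 and 0 by DESeq2 and by limma-voom). Without mutant replicate 1, 4 epithelial, 2 stromal, 4 smooth muscle, 2 immune and 5 glandular markers were lower, beside 14.0% of all genes. Immune markers summed to 538 to 780 CPM in controls and 539 to 880 CPM in mutants (0 of 16 by edgeR, 1 at an unadjusted p under 0.05, 1 by DESeq2 and 1 by limma-voom), and the T cell gene Cd3e was at 0 in mutant replicate 1. Glial Sox10 was at 0 in mutant replicates 1 and 2 and in control replicates 1 and 3, and the nerve and glia markers summed to 7.39 to 7.90 CPM in controls and 3.50 to 10.2 CPM in mutants. Glandular markers, at 10602 to 50748 CPM in controls, were at 13690 CPM in mutant replicate 1 and 734 to 982 CPM in the other mutants. Of these 10, 2 fell (Foxa2 and Sox9), 3 had an unadjusted p under 0.05 in edgeR, and 3 passed by DESeq2 and 4 by limma-voom. Cell cycle genes summed to 651 to 1013 CPM in controls, 379 CPM in mutant replicate 1 and 1237 to 2380 CPM in the other mutants (0 of 20 by edgeR, 1 at an unadjusted p under 0.05, 1 by DESeq2 and 0 by limma-voom, and 14 higher without mutant replicate 1). All 6 members that fell, Slc38a1, Slc7a5, Slc7a8, Slc6a14, Slc3a1 and Slc3a2, were below every control both in mutant replicate 1 and in the other mutants. They were called by a test that included mutant replicate 1, so such separation was likely beforehand. The summed epithelial, stromal and mesothelial markers were also below every control in every mutant. Slc1a4 was above every control in mutant replicate 1 and below them in the others, and Slc7a11 was below every control in mutant replicate 1 alone.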

How the data were processed

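RNA of sorted endometrial epithelium was measured in 4 mutant and 3 control libraries. The deposited tables hold STAR gene counts, which are raw reads per gene in an unstranded and 2 stranded columns. Per the submitters' processing notes, cutadapt, Trim Galore, FastQC, STAR, DESeq2 and the mm10 build were used, without versions, and the sources name no annotation. The authors also deposited log2 fold changes with standard errors and adjusted p-values of their own comparison, which are quoted only where named.

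The reverse-stranded column was used, since it held 94.8% to 95.6% of both stranded columns. Reads that count for no gene (25.3% to 30.5% of a library) stayed out. Of 53379 gene IDs, 53274 matched GENCODE M21 (GRCm38), which gave symbols, types, coordinates and merged exon lengths. No member shares exon bases with another gene on its strand.

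After filterByExpr, edgeR 4.0.16 in R 4.3.3 tested each gene (TMM scaling, quasi-likelihood F test, genotype as the only term, two-sided, Benjamini-Hochberg adjustment over 14610 genes, threshold 0.05). The procedure was tested on simulated counts drawn from the control means. These held no pools and no outlying library, so they say nothing about how such features affect the calls. Standard errors were taken from the same test, as the fold change divided by the root of its F value. P-values rest on the variation among single mutant mice and control pools. A spread among pools is not a spread among mice, so the SDs of the groups are not of the same kind. All pairs of libraries differed by more than sampling noise (lowest chi-square per degree of freedom 54.9). Alternatives were other scalings, limma 3.58.1 (voom), DESeq2 1.42.0, no filter, unstranded counts, the replicate number as a term and leaving out each library. Members and gene lists were chosen with earlier results of these data known. Members could all be named, and 1 of them is not reported here. From each pathway list came up to 5 genes past the threshold, ranked by size of change, that averaged 1 CPM or more.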

Additional observations from a re-analysis of the deposited data

Results flagged for a closer look

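Of the 35 tested members, 7 had 1 mutant library whose gap to the nearest of the other 3 took up more of the range of the 4 than the 95% critical value of Dixon's test. Chance flags about 1 in 20 groups, and 8.85% of the 14610 genes tested met the same criterion. Mutant replicate 1 was the distant library for 5 members: Slc1a4 at 116.7 CPM, Slc3a2 at 223 CPM, Slc43a2 at 43.5 CPM and Slc38a9 at 25.6 CPM lay above the other mutants, and Slc6a9 at 6.71 CPM lay below them. Mutant replicate 4 was distant for Slc36a4, at 2.735 CPM below the other mutants, and for Slc38a4, at 3.404 CPM above them. No mutant replicate 2 or 3 value was distant in this sense, and the cause was not tested. Of these members only Slc3a2 passed the test between genotypes, and leaving out its distant library moved its log2 fold change from −1.02 to −1.25 (adjusted p = 0.00404 by edgeR). That library was the mutant nearest the controls for Slc3a2, so a larger change without it was likely beforehand and adds no support. Slc3a2 did not pass when any other single library was left out.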

How the results depend on the processing

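The 7 called members kept their direction in all alternatives tried. Their groups did not overlap, so this was likely beforehand, and the limits lie in the calls. Against 6 lower and 1 higher, 4 members were higher with total counts, 0 with no filter and 2 with DESeq2, and limma-voom and the other settings without a left-out library or a block gave 5 or 6 lower. Among genes of the 5 other lists, 10 lower and 4 higher with all libraries, 14 were higher with total counts and 1 with no filter. With 1 library left out, 1 to 10 members were lower and 0 to 3 higher, and 6 to 15 list genes were lower and 0 to 15 higher. Over all genes, 1687 passed, against 4403 without mutant replicate 1, 629 to 1009 without another mutant, 2734 with total counts and 1057 with no filter, which tests 29033 genes.

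With the replicate number as a block (replicate block), 0 members and 0 list genes passed in either direction, and 2 of all genes, while 10 members and 3052 of all genes had an unadjusted p under 0.05 in edgeR. Mutants and controls that share a number are different mice and pools, and their deviations correlated at −0.020, −0.362 and 0.155, so the numbers do not pair the samples.

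Slc3a2 also missed the threshold with upper quartiles, total counts, no filter and unstranded counts, and Slc6a6 with no filter (adjusted p = 0.0944 by edgeR). Some uncalled members changed sign, all within 0.3 of 0 on the log2 scale when no library was left out. With upper quartiles Slc1a4 was at 0.02258, Slc38a4 at 0.03512, Slc6a17 at 0.03223 and Slc7a6 at 0.05717, and with total counts they were at 0.194, 0.291, 0.2258 and 0.2894, beside 0.09026 for Slc38a9. Slc1a5 and Slc7a7 were at −0.0005669 and −0.0169 with no filter and at −0.0426 and −0.08566 with limma-voom. Slc6a9 was at −0.04441 with unstranded counts and Slc43a3 at −0.03658 with the block. With 1 library left out, Slc1a4 ranged from −1.16 to 0.2204, Slc1a5 from −0.2012 to 0.2288, Slc38a4 from −1.101 to 0.2199, Slc43a3 from −0.1181 to 0.3354, Slc6a17 from −0.8145 to 0.2233, Slc7a6 from −0.354 to 0.08654 and Slc7a7 from −0.2542 to 0.2226. The cause of these changes was not tested. Depth limits the 20 members with few reads and the scarce Slc3a1.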
